A study of Mus musculus with 6 samples.

Results

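The inducible HSP70 system is the set of cytosolic chaperones that cells make in quantity when proteins unfold. It was examined here through 10 genes of the 18193 that the array names with a probe set of their own: Hspa1a, Hspa1b, Hspa8, Hsph1, Dnajb1, Dnajb4, Dnaja1, Bag3, Hspb1 and Hsp90aa1. A gene counted when the platform annotation gave a probe set exactly 1 of these symbols, and this yielded 26 probe sets, between 1 and 5 per gene. All 10 genes were measured, no filter on low values was applied, and 23 of the 26 probe sets lay at or above 4.84, the median mean level of all probe sets.

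RNA came from mouse mesenchymal stem cells of a commercial source, a stromal cell that can form fat, bone or cartilage. Every culture, control or irradiated, had been given an adipogenic mix again 48 h earlier, made up of dexamethasone at 1 µM, IBMX (which blocks phosphodiesterases) at 100 µM, rosiglitazone at 1 µM and insulin at 5 µg/ml, in medium with 5% serum. Irradiated cultures were exposed for 2 h to broadband terahertz pulses of 35 fs, centred near 10 THz, at 1 kHz and an average of 1 mW/cm2, and each control culture stood next to its irradiated partner at the same 26 to 27 °C. The series holds 3 independent experiments of 1 irradiated and 1 control culture, so that 6 arrays allow both an irradiated minus control difference within each experiment and a comparison of the experiments, numbered 1 to 3 as in the labels. The labels give the experiments no date, passage or processing day, and the pairs are the replicates 1, 2 and 3 of the series.

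HSP70 proteins bind exposed hydrophobic stretches of unfolded proteins and release them in a cycle of ATP binding and hydrolysis. J-domain proteins such as Dnajb1 deliver the client and start hydrolysis, and exchange factors such as Hsph1 and Bag3 remove ADP so that the client is let go. In stress caused by heat, heavy metals or protein damage, heat shock factor 1 binds heat shock elements, inverted repeats of a 3-base unit, and raises transcription of many of these genes. The study compared transcripts of irradiated and control cultures.

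Promoter sequence is shown first for the 4 genes with the largest differences between experiments 1 and 3 among the brightest probe sets, Hspa1a, Hspa1b, Hspb1 and Dnajb1. RefSeq's table for GRCm38.p6 held a promoter window for 8 of the 10 genes, 13 windows in all; Hspa8 and Hsp90aa1 are not among them. Only the 250 bases before each start were used, written 5′ to 3′ along the gene's strand. Capitals mark a pair of inverted heat shock units, GAANNTTC or TTCNNGAA, each of which reads the same on both strands. Hspa1a lies on the minus strand with its window at chr17:34972157-34972406, and Hspa1b on the minus strand at chr17:34959239-34959488. Hspb1 is on the plus strand at chr5:135887669-135887918, and Dnajb1 on the plus strand at chr8:83607925-83608174, where no pair was found.
Hspa1a: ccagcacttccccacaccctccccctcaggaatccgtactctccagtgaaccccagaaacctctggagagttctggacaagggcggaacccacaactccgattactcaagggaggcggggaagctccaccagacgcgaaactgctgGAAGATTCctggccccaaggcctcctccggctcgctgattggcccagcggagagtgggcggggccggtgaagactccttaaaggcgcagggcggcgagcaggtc
Hspa1b: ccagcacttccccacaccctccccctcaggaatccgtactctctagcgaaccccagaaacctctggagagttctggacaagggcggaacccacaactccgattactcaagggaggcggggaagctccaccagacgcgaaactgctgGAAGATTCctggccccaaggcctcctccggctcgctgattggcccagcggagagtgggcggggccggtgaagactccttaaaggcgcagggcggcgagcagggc
Hspb1: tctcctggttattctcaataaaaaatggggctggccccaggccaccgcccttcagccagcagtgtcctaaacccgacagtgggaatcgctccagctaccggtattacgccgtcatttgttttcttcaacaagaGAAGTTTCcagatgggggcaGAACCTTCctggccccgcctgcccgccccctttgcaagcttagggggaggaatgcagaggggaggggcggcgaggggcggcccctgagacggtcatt
Dnajb1: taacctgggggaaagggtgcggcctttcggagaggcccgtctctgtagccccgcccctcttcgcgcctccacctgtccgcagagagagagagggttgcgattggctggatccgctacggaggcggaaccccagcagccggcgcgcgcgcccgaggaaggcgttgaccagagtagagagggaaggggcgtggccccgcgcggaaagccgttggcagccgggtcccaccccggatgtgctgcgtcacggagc

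The Hspa1a and Hspa1b windows differed at 3 of 250 bases, an identity of 98.8%, and both held 1 pair that began 104 bases before the start. Hspb1 held 2 pairs, beginning 117 and 97 bases before its start, and Dnaja1 held 1, beginning 124 bases before it. Of the 8 genes, 6 had a pair in at least 1 window (7 of 13 windows), while 12.8% of all 32851 windows in the table held one. Hsph1 had 1 in each of 2 overlapping windows and Dnajb4 in 1 of 2, and Dnajb1 and Bag3 had none in these bases. A run of 3 units, the same letters extended by NNGAA or NNTTC, was in 0 of the 13 windows and in 0.466% of all windows. The letters CCAAT, searched on both strands, were in 7 of the 13 windows and in 33.8% of all, and TATAAA in 0 of 13 and in 12.4%. A match is a description of letters only. In RefSeq's GRCm38.p6 annotation Hspa1a spans chr17:34969359-34972156 and Hspa1b chr17:34956429-34959238, and the others lie apart from them and from each other, Hspa8 at chr9:40801276-40805202, Hsph1 at chr5:149616843-149636498, Dnajb1 at chr8:83608175-83612653, Dnajb4 at chr3:152181580-152210432, Dnaja1 at chr4:40722468-40734965, Bag3 at chr7:128523583-128546981, Hspb1 at chr5:135887919-135889563 and Hsp90aa1 at chr12:110691036-110696395.

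Levels are the authors' log2 values from RMA, a method that subtracts background, gives every array the same distribution and combines the probes of each set into 1 value. Levels of different genes cannot be set against each other on such an array, so only differences within a probe set are compared. Each gene is represented by its probe set with the highest mean level, and other probe sets are named where they differ.

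The inducible HSP70 genes Hspa1a and Hspa1b differed between experiments by far more than between the arms of any experiment. For Hspa1a, experiment 1 gave levels of 5.71 (control) and 5.63 (irradiated), experiment 2 gave 8.83 and 9.06, and experiment 3 gave 12.70 and 12.35. The arrays of the 3 experiments did not overlap, and both cultures of an experiment lay together. Experiment 3 exceeded experiment 1 by 6.86 ± 0.15 (limma SE; 95% interval 6.49 to 7.22), which is 116-fold on this scale, and experiment 2 exceeded experiment 1 by 3.28 ± 0.15, or 9.68-fold. Of 45037 probe sets, that of Hspa1a had the largest rise from experiment 1 to 3. Adjusted p by limma was 0.000106 for experiment 3 against 1, 0.00276 for 2 against 1 and 0.0104 for 3 against 2. Each experiment is a single run. The tests therefore set these differences against the spread between both cultures of an experiment, after a common arm difference, and not against repeated runs. In limma the spread of each probe set is also drawn toward a value shared by all probe sets.

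Hspa1b, the neighbouring copy of the same inducible protein, followed the same order. Its levels were 8.51 and 8.30 in experiment 1, 10.52 and 10.73 in experiment 2, and 13.34 and 13.11 in experiment 3, control first. These arrays did not overlap between experiments either. Its difference between experiments 3 and 1 was 4.82 ± 0.14 (28.2-fold, limma adjusted p = 0.000197), and the other probe sets of the gene gave 5.20 and 5.73. In the ranking of all probe sets by this rise, the 3 probe sets of Hspa1b held places 2, 4 and 5. Because the genes are close to identical in sequence, the array may not separate them, and their values are not independent.

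**Figure D1:**
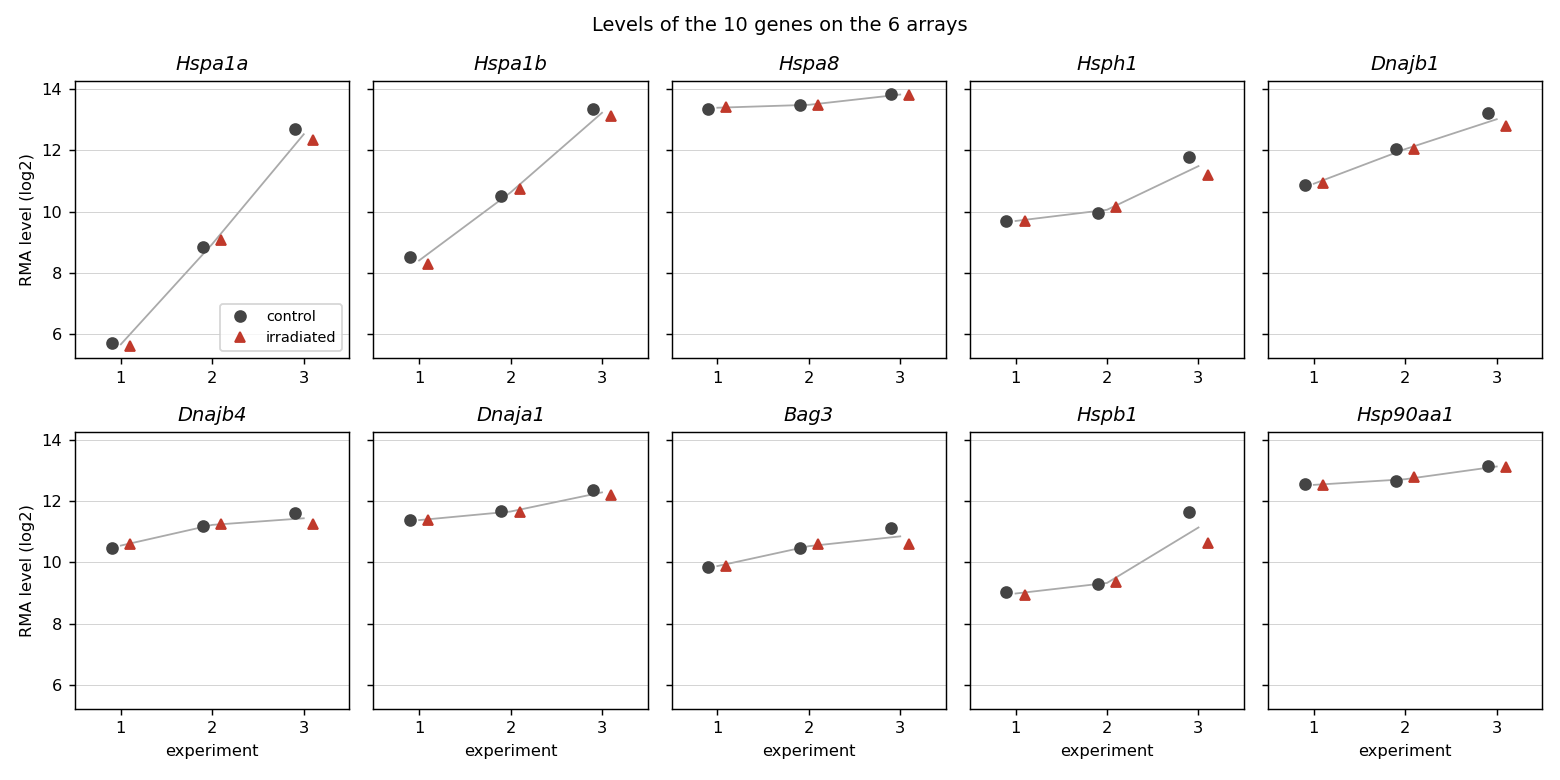
RMA level (log2) of the 10 genes, 1 panel per gene, by experiment, with black circles for control cultures, red triangles for irradiated cultures and a grey line through the mean of each experiment. Hspa1a runs from 5.63 to 12.70, both cultures of an experiment lie together for most genes, and the widest gap between them is that of Hspb1 in experiment 3, 10.64 against 11.63.

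The rise from experiment 1 to 3 was shared by most of the 10 genes, which were chosen with earlier results of these data known. By limma with arm as a covariate, 9 of the 10 genes (22 of 26 probe sets) were higher in experiment 3 than in experiment 1 at an adjusted p under 0.05, where 1.87% of all probe sets were higher at that threshold. Hspa8 did not pass by its brightest probe set, while its probe sets at 0.53 (limma adjusted p = 0.047) and 3.46 (0.000197) did. The median of the 10 genes was 1.38, against -0.01 for all probe sets, and 0 genes were lower. For experiment 2 against experiment 1 the genes that passed were Hspa1a, Hspa1b and Dnajb1, 3 of 10 (7 of 26 probe sets). Of all probe sets 0.473% were higher, and the median of the 10 genes was 0.51. For experiment 3 against experiment 2 Hspa1a and Hspa1b passed, 2 of 10 (5 of 26 probe sets), against 0.0355% of all, with a median of 0.80. With an intensity trend in the variance the count was 8 of 10, where 275 of all 45037 probe sets passed in either direction. These comparisons share experiments, so their counts are not independent of each other.

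Each experiment held only 2 cultures, and leaving out any 1 of the 6 arrays, control or irradiated, left 1 residual degree of freedom and ended every one of these calls. Hspa1a then differed by between 6.64 and 7.07 from experiment 1 to 3, with adjusted p from 0.0587 to 0.260. An order without overlap, with both arrays of experiment 3 above both of experiment 2 and these above both of experiment 1, was seen in 8 of the 10 genes and in 3.83% of all probe sets. The exceptions were Dnajb4 and Bag3.

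Among the J-domain proteins, Dnajb1, the partner that directs HSP70 to aggregated proteins, moved most. It was at 10.88 and 10.94 in experiment 1, 12.04 and 12.04 in experiment 2, and 13.23 and 12.80 in experiment 3. Every array of a later-numbered experiment lay above those of an earlier-numbered one. The difference between experiments 3 and 1 was 2.11 ± 0.14 (4.30-fold, limma adjusted p = 0.00199), and that between 2 and 1 was 1.13 ± 0.14 (limma adjusted p = 0.0412). Its second probe set gave 2.49 and 1.40.

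Dnaja1, a farnesylated J-domain protein, had smaller differences. It stood at 11.38 and 11.37, then 11.67 and 11.64, then 12.36 and 12.20 in experiments 1, 2 and 3. Experiment 3 was higher than experiment 1 by 0.91 ± 0.10 (limma adjusted p = 0.00949), and the other 2 probe sets gave 1.15 and 0.95. Dnajb4, a relative of Dnajb1, was at 10.48 and 10.61 in experiment 1, 11.18 and 11.26 in experiment 2, and 11.62 and 11.25 in experiment 3. Experiments 2 and 3 overlapped for this gene, and the difference between 3 and 1 was 0.89 ± 0.14 (limma adjusted p = 0.0340). One dim probe set of Dnajb4, between 4.09 and 4.33 on all arrays, gave -0.09 for the same comparison.

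Of the exchange factors, Hsph1, which encodes HSP110, was at 9.70 and 9.69 in experiment 1, 9.96 and 10.16 in experiment 2, and 11.78 and 11.19 in experiment 3. Most of its difference therefore lay between experiments 2 and 3. It was 1.79 ± 0.19 for experiment 3 against 1 (3.46-fold, limma adjusted p = 0.0092) and 0.37 ± 0.19 for experiment 2 against 1, which did not pass. Bag3, which links HSP70 to small heat shock proteins and to autophagy, was at 9.86 and 9.89, then 10.47 and 10.58, then 11.11 and 10.58. Irradiated cultures 2 and 3 had the same value, so the experiments touched, and the difference between 3 and 1 was 0.97 ± 0.17 (limma adjusted p = 0.0415).

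Hspb1, the small heat shock protein that holds unfolding proteins in solution, was raised in experiment 3. It stood at 9.03 and 8.93 in experiment 1, 9.28 and 9.37 in experiment 2, and 11.63 and 10.64 in experiment 3. The gap between the 2 cultures of experiment 3 was the widest among the 10 genes, and both lay above every other array. The difference between experiments 3 and 1 was 2.16 ± 0.25 (4.45-fold, limma adjusted p = 0.0123), and between 2 and 1 it was 0.35 ± 0.25, which did not pass.

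The constitutive HSP70 gene Hspa8 and the inducible HSP90 gene Hsp90aa1 had small differences by their brightest probe sets. Hsp90aa1 was at 12.54 and 12.51, 12.64 and 12.78, and 13.15 and 13.10 in experiments 1, 2 and 3, and its difference between 3 and 1 was 0.60 ± 0.10 (limma adjusted p = 0.0372). The others of its 5 probe sets gave 1.14, 0.95, 0.69 and -0.08, the last being a dim set between 4.08 and 4.28 on all arrays and the one before it a dim set between 2.95 and 3.75. Hspa8 was at 13.35 and 13.43, 13.48 and 13.49, and 13.85 and 13.79, a difference of 0.43 ± 0.09 that did not pass (limma adjusted p = 0.0781). It passed with a filter on level (limma adjusted p = 0.0298), an intensity trend (0.000713), the mean of its probe sets (0.00139) and no arm term (0.0453).

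The 4 probe sets of Hspa8 gave different answers. The 3 bright ones lay between 12.28 and 13.85 and differed by 0.20, 0.43 and 0.53 between experiments 3 and 1. Of these only the last passed (limma adjusted p = 0.047). The dimmer one was at 6.99 and 7.08 in experiment 1, 8.57 and 8.52 in experiment 2, and 10.44 and 10.54 in experiment 3. Its difference of 3.46 ± 0.10 between experiments 3 and 1 (11.0-fold, limma adjusted p = 0.000197) was the 18th largest rise of all probe sets. This probe set also passed for experiment 2 against 1 (1.51, limma adjusted p = 0.00446) and for 3 against 2 (1.945, 0.0104). Which transcript of the locus this probe set reads is not given in the sources used here.

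**Figure D2:**
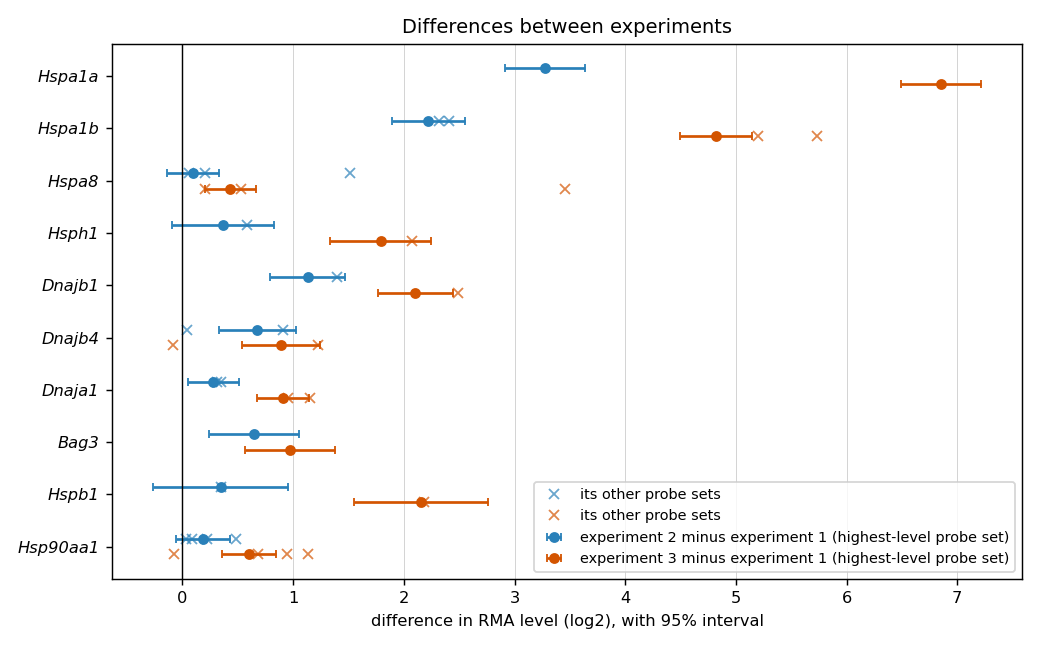
Differences in RMA level (log2) of experiment 2 (blue) and experiment 3 (orange) from experiment 1, with dots and 95% limma intervals for the probe set with the highest level of each gene and crosses for its other probe sets. Hspa1a (6.86) and Hspa1b (4.82) stand furthest right, and 1 probe set of Hspa8 lies at 3.46 away from its other sets. The dim set of Dnajb4 and 1 dim set of Hsp90aa1 lie near 0. Another dim set of Hsp90aa1 lies at 0.69 for experiment 3.

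Experiment accounted for most of the variation of the 10 genes by their brightest probe sets. The typical share over all probe sets is not given here. Its share of the sum of squares over the 6 arrays was 99.8% for Hspa1a, 99.7% for Hspa1b, 97.9% for Dnajb1 and 94.9% for Hsph1. Among the brightest probe sets it was lowest in Bag3, at 86.9%, with 10.8% in the residual. The share of arm was 0.0142% for Hspa1a and highest among these probe sets for Hspb1, at 2.84%. In the dim set of Dnajb4 experiment held 36.6% and arm 53.2%. In the dim set of Hsp90aa1 between 4.08 and 4.28, experiment held 36.0% and arm 44.6%. In its dim set between 2.95 and 3.75, experiment held 96.6% and arm 0.186%.

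Several measures of the arrays also differed between experiments. For Gapdh, the level of the 3′ control set exceeded that of the 5′ set, a gap that widens when RNA is degraded, by 0.19 and 0.23 in experiment 1, while the gap lay between -0.05 and -0.01 on the other 4 arrays. Averaged over 9 hybridization spike-in probe sets, control culture 3 read 11.85 and its irradiated partner 11.51, against 11.30 to 11.39 on the other 4 arrays. Of 10 macrophage and leukocyte markers, 0 passed between experiments 3 and 1, where 1374 of all 45037 probe sets passed in either direction. Their mean level was 11.14 to 11.40 on the 6 arrays, and their median difference was -0.18, with 2 of 10 positive. Of 7 measured fat cell markers 0 passed, with means of 11.85 to 12.11 and a median difference of -0.16, 1 of 7 being positive. Of 9 measured stromal markers 0 passed, with means of 9.08 to 9.27 and a median difference of -0.085, 2 of 9 being positive. The median over all probe sets was -0.01. Of 6 endothelial markers, at means of 3.36 to 3.63 and a median difference of 0.08, 1 passed (Pecam1, 0.56). Of 6 muscle markers, at means of 4.26 to 4.54 and a median difference of 0.12, 0 passed. The part of these measures in the chaperone differences was not tested. In cultures that hold several cell types, a change in the share of cells and a change in RNA per cell cannot be told apart.

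Markers of the labelled cell type were read as each probe set's own level, since levels of different genes do not rank, and they do not settle the label. Of the stromal list, Cd44 and Pdgfrb gave 10.74 to 11.00 and 10.66 to 10.97 over the 6 arrays. Vcam1 gave 10.89 to 11.21, Itgb1 10.70 to 10.99, Alcam 10.13 to 10.35 and Pdgfra 9.11 to 9.51. Eng gave 7.17 to 7.43, Nt5e 7.53 to 8.44 and the probe set of Thy1 3.51 to 4.07. That of the leukocyte gene Ptprc, which stromal cells lack, gave 9.55 to 10.09. Of the same macrophage and leukocyte list, Lyz2 gave 14.15 to 14.25, Csf1r 12.42 to 12.80 and Itgam 7.26 to 7.78.

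Irradiated and control cultures did not differ in any of the 10 genes by the test. With experiment as a block in the limma model, 0 of 10 genes passed at an adjusted p under 0.05, against 0.0% of all probe sets, and 0 of the 26 probe sets had an unadjusted p under 0.05, against 2237 of 45037. The median difference of the 10 genes was -0.07, against 0.0033 for all probe sets, and the median was 0.05 without replicate 3. The 95% interval lay inside 2-fold for all 26 probe sets, and the share of all probe sets with such an interval was not computed. Hspa1a was at -0.07 ± 0.12 (95% interval -0.36 to 0.23), Dnajb1 at -0.12 ± 0.12 (-0.40 to 0.16) and Hspb1 at -0.33 ± 0.20 (-0.83 to 0.16), which became -0.005 without replicate 3. The smallest two-sided p that 3 pairs allow in an exact sign-flip permutation is 0.25.

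The median of the 10 genes was lowest in experiment 3, with pair differences of -0.01, 0.10 and -0.36 in experiments 1, 2 and 3. Irradiated was lower than control, by any amount, in 6 of 10 genes in pair 1 (47.1% of all probe sets), in 1 of 10 in pair 2 (47.2%) and in 10 of 10 in pair 3 (48.4%). In pair 3, 6 genes, Hspa1a, Hsph1, Dnajb1, Dnajb4, Bag3 and Hspb1, were lower by at least 0.3, where 9.49% of all probe sets were. In pair 1 this count was 0 of 10 (5.34% of all probe sets) and in pair 2 it was 0 of 10 (4.56%). Hspa1b, at -0.21, 0.21 and -0.23, was about as low in pair 1 as in pair 3. Irradiated was lower in all 3 pairs for 1 of 10 genes, Dnaja1, and for 11.2% of all probe sets.

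Hspb1 had the largest pair difference of the 10 genes, at -0.10, 0.09 and -0.99 in experiments 1, 2 and 3, and its second probe set gave -0.11, -0.03 and -1.03. These took places 50 and 33 among the largest falls of all probe sets in pair 3. Hsph1 followed, with -0.01, 0.20 and -0.59, then Bag3 with 0.03, 0.11 and -0.53, and Dnajb1 with 0.06, 0.00 and -0.43. Dnajb4 was at 0.13, 0.08 and -0.37 and Hspa1a at -0.08, 0.23 and -0.35. Hspa8, at 0.08, 0.01 and -0.06, and Hsp90aa1, at -0.03, 0.14 and -0.05, had the smallest differences in pair 3. With 1 pair per experiment, whether the difference varies between experiments has no replicate check. Control culture 3 is also the array with the highest spike-in mean, and its 3′ minus 5′ value of Actb was 0.72 against 0.62 in irradiated culture 3. Their part in the pair difference was not tested.

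**Figure D3:**
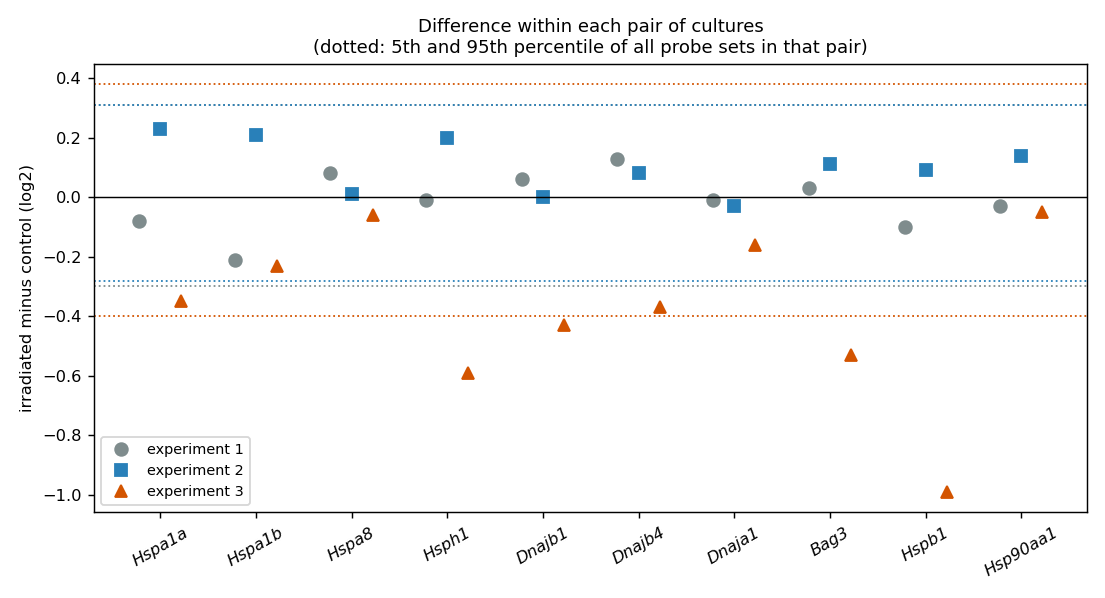
Irradiated minus control difference in RMA level (log2) of the 10 genes in experiments 1 (grey circles), 2 (blue squares) and 3 (orange triangles), with dotted lines at the 5th and 95th percentile of all probe sets in that pair. Experiment 3 lies below 0 for every gene, down to -0.99 for Hspb1, and Hsph1, Dnajb1, Bag3 and Hspb1 fall below its 5th percentile of -0.40.

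Other members of the chaperone families mostly did not pass between experiments 3 and 1, where 1.87% of all probe sets passed as higher. Of 8 other HSP70 and HSP110 genes 1 passed, Hspa2, the testis-enriched HSP70, which was higher by 1.98 ± 0.10 (limma adjusted p = 0.000788). Its arrays read 7.62 and 7.51, 8.40 and 8.38, and 9.48 and 9.60. Hspa1l, a germ cell HSP70 that was dim here (2.74 to 3.45), was at 0.41 and did not pass. Of 14 other J-domain genes 2 passed, Dnaja4 at 1.72 ± 0.12 (6.70 and 6.81, 7.41 and 7.29, 8.59 and 8.35) and Dnajb9, an endoplasmic reticulum protein, at 0.89 ± 0.10. The median of those 14 genes was -0.03.

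None of the other factors that bind HSP70 or HSP90, nor of the other small heat shock proteins, passed the limma test between experiments 3 and 1. Of 11 exchange and HSP70-binding factors 0 passed (median -0.12), among them Bag5 at -0.33, Bag4 at -0.28, the ubiquitin ligase gene Stub1 at 0.08 and St13 at -0.19. Of 9 measured HSP90 genes and co-chaperones 0 passed (median 0.19), with Stip1, which bridges HSP70 and HSP90, at 0.37 and Ahsa2 at 0.28. Hsp90ab1, Ptges3 and Ppid have no probe set of their own here. Of 7 other small heat shock proteins 0 passed (median 0.14), although Cryab was at 1.03 ± 0.23 (limma adjusted p = 0.0784), with arrays of 9.53 and 9.58, 9.75 and 10.00, and 10.95 and 10.22, and Hspb8 was at 0.45. Cryab, like Hspb1, was lower in the irradiated than in the control culture of experiment 3.

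The heat shock factors and the housekeeping chaperonin were near 0. Of 4 measured factors and their binding protein 0 passed (median 0.03), with Hsf2 at 0.12 and Hsf4 at 0.05, and Hsf1 has no probe set of its own here. Of the 8 subunits of the cytosolic chaperonin 0 passed and 1 was positive (median -0.14), with Tcp1 at -0.18 and Cct4 at -0.17. Among 10 organelle chaperones 1 passed, the endoplasmic reticulum HSP70 gene Hspa5, at 0.93 ± 0.09 (limma adjusted p = 0.00755), while the mitochondrial HSP70 gene Hspa9 was at 0.10 and the collagen chaperone gene Serpinh1 at 0.60 (limma adjusted p = 0.098). Both measured cold-inducible genes, Cirbp at -0.09 and Srsf5 at -0.17, did not pass, and Rbm3 and Rbm10 have no probe set of their own here.

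Of 8 other measured genes known to respond to heat, 5 were higher in experiment 3 than in experiment 1 by limma. Of all probe sets 1.87% were, and the median of the 8 genes was 1.10. The list was drawn up with earlier results of these data known. The 3 that did not pass were Dedd2 (0.23), Cacybp (0.22) and Mrpl18 (-0.17). Atf3, a stress-induced transcription factor, was at 8.39 and 8.46, 10.18 and 10.22, and 12.21 and 11.87, a difference of 3.62 ± 0.13 (limma adjusted p = 0.00029). Ier5, an early response gene, was at 9.44 and 9.54, 11.39 and 11.45, and 12.05 and 12.03, a difference of 2.55 ± 0.09. The other 3 that passed, named like the 3 that did not after their values were seen, were the zinc finger gene Zfand2a (1.24), heme oxygenase Hmox1 (1.22) and Jmjd6 (0.98). Between experiments 2 and 1, Atf3, Ier5 and Hmox1 passed, where 0.473% of all probe sets were higher. Between 3 and 2 only Atf3 of the 8 did (1.84, limma adjusted p = 0.0347), against 0.0355%. In the comparison of irradiated with control cultures 0 of all 45037 probe sets passed, so 0 genes of any list could, which says nothing about the lists.

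**Figure D4:**
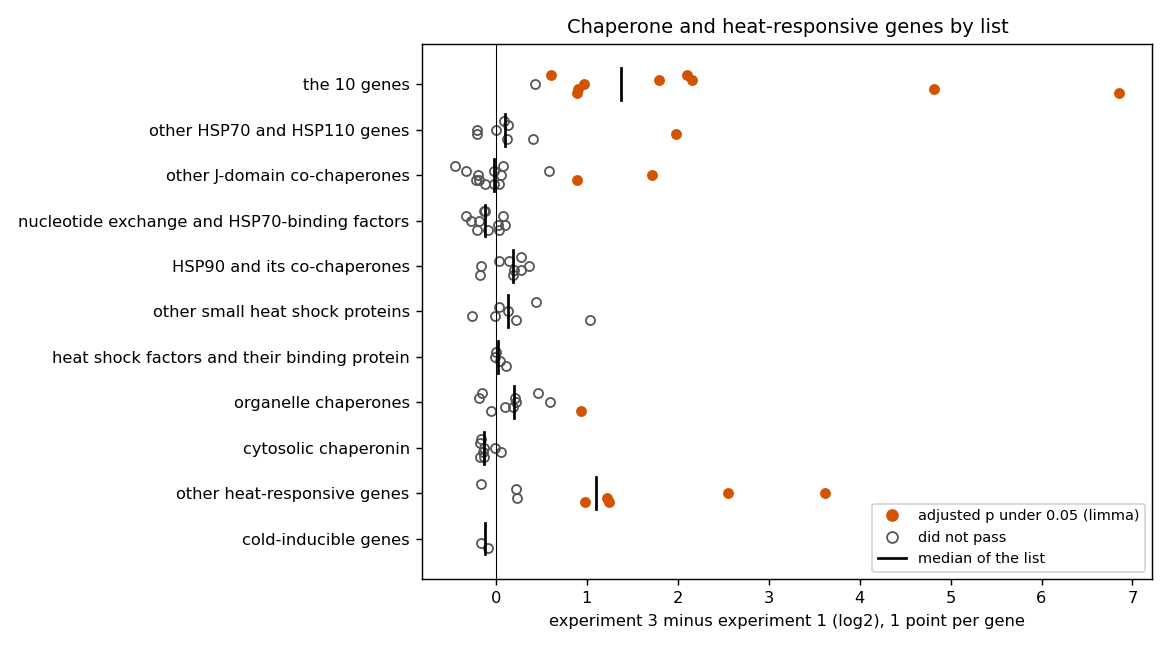
Experiment 3 minus experiment 1 difference in RMA level (log2), 1 point per gene, for the 10 genes and for 10 lists of related genes, with filled orange points for an adjusted p under 0.05 by limma, open points for the rest and a black bar at each median. The 10 genes (median 1.38) and the other heat-responsive genes (median 1.10) lie to the right, and the other lists have medians between -0.14 and 0.20. All lists were drawn up with earlier results of these data known.

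In order and size of its differences Hspa1a was nearest to Hspa1b, which the array may not separate from it. The 5 nearest genes outside the set were no chaperones. Likeness was the root mean square difference of the 6 array levels after each gene's mean was subtracted, so that lower is more alike. Levels were not scaled, so a gene with a much smaller rise lies far from Hspa1a even where its order is the same. Hspa1b had values of 0.48 to 0.83. Outside the 10 genes the nearest were Fosb, an AP-1 subunit (0.92), Nefm, a neurofilament protein (1.10), Hbegf, an EGF receptor ligand (1.14), and the chemokines Cxcl2 (1.14) and Cxcl1 (1.17). Among the other 8 genes the nearest was the dimmer probe set of Hspa8 (1.40), followed by Dnajb1 (1.79 and 1.94) and Hspb1 (1.94 and 1.95). Fosb was at 4.37 and 4.11, 8.74 and 8.40, and 9.96 and 9.92, so its larger step lay between experiments 1 and 2, at 4.33 against 1.37, where Hspa1a took 3.28 and 3.58.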

How the data were processed

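RNA of 6 cultures was labelled from 200 ng per the labels' protocols and hybridized to Affymetrix arrays. The deposited log2 values are the authors' own. Per the submitters' processing notes the tools were affy, limma and RMA, without stated versions or roles, and the genome build is not given in the sources used here. Scanner files were not used here. The log base is taken as 2 because RMA gives that scale. Of 45101 probe sets, 64 controls were left out; of the remaining 45037, 34945 have 1 gene symbol in the platform annotation, 932 have several and 9160 are unnamed here.

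One model over all 45037 probe sets, with experiment and arm, was fitted with limma 3.58.1 in R 4.3.3 (lmFit, eBayes, two-sided, no filter). P-values were Benjamini-Hochberg adjusted across all probe sets within each comparison, with a threshold of 0.05. The script was tested on simulated data. The series design pairs the cultures; deviations of paired arrays from their group means correlated with r = 0.63, 0.14 and 0.50 in experiments 1, 2 and 3.

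The 10 genes, the lists and the rules were chosen with earlier results of these data known. Genes named are the 10, fixed companions, the 2 of each list with the largest difference between experiments 3 and 1, and the 5 nearest to Hspa1a. Marker lists are summarized by counts and means. Cd44, Pdgfrb, Vcam1, Itgb1, Alcam, Pdgfra, Eng, Nt5e, Thy1, Ptprc, Lyz2, Csf1r and Itgam were named after their values were seen. The 0.3 threshold on pair differences was also set with the data known. Alternatives were no block, no arm term, quantile normalization, median centring, a filter on level, an intensity trend, the mean of probe sets and leaving out experiments or arrays. The precision is limited by 2 arrays per experiment.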

Additional observations from a re-analysis of the deposited data

How the results depend on the processing

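Between irradiated and control cultures 0 probe sets passed under every limma setting run, no replicate block included. The median of the 10 genes was -0.07 with and without the block. With 1 array of each arm per experiment, dropping the block cannot change the differences themselves. Signs of small differences turned: Hspa8 was at -0.0083 with the mean of probe sets and -0.01 with median centring, and Hsp90aa1 at -0.0207 with the mean of probe sets. Leaving out 1 experiment gave -0.025 to 0.045 for Hspa8, -0.04 to 0.055 for Hsp90aa1, -0.215 to 0.075 for Hspa1a, -0.30 to 0.095 for Hsph1, -0.215 to 0.03 for Dnajb1, -0.145 to 0.105 for Dnajb4, -0.25 to 0.07 for Bag3, -0.22 to 0 for Hspa1b, -0.545 to -0.005 for Hspb1 and -0.095 to -0.02 for Dnaja1.

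The count of probe sets that passed was 234 for experiment 2 against 1, 1374 for 3 against 1 and 16 for 3 against 2. It was 374, 2513 and 64 with the filter on level, 670, 3534 and 275 with the intensity trend, and 52 for the last with no arm term. Of the 10 genes, 8 passed for 3 against 2 with the intensity trend. Leaving out 1 array gave 0 to 0 probe sets and 0 of 10 genes in each, because 1 residual degree of freedom is left. Medians of the 10 genes then ranged from 0.36 to 0.72 (2 against 1), 1.14 to 1.70 (3 against 1) and 0.65 to 0.95 (3 against 2), and the median for 3 against 1 was 1.54 with the mean of probe sets. Dnajb4 for 3 against 2 ranged from -0.0225 to 0.4525. Quantile normalization and median centring changed no call of the 10 genes.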
